A study of Mus musculus with 127 samples.

Results

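Translation initiation and elongation factors were described in 127 single mouse marrow cells. Their genes were taken as the table's symbols that begin with Eif and a digit or with Eef, without Eif2s1 and the eIF2 kinases (Eif2ak), and each symbol was represented by its transcript row with the highest mean RPKM (read number scaled to transcript length and sequencing depth). The rule gave 60 of the 24320 symbols, from 103 rows, and used no difference between groups. Of these 60 genes, 46 had a mean log2(RPKM + 1) of at least 1 over all cells, as had 2540 genes of the whole table. The other 14 were under that level, and Eef1a2 and Eif4e1b were at 0 in every cell.

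Each sample was 1 cell of C57BL/6J marrow labelled as an erythroblast, captured on a microfluidic chip and amplified with SMART-Seq chemistry. The cells formed 3 groups, with 48 from Flvcr-deleted marrow (Flvcr encodes a heme exporter), 48 from wild-type marrow and 31 from wild-type mice treated with erythropoietin (EPO), a kidney hormone that stimulates erythropoiesis. The labels gave no age, dose, duration, deletion method or animal. The cells of each group came from chips of their own, with 2 chips for the EPO-treated cells, so chip and group cannot be told apart. Each cell carried a class letter, A to D. From A to D the Flvcr-deleted cells numbered 18, 16, 9 and 5, the wild-type cells 6, 10, 19 and 13, and those after EPO 7, 11, 9 and 4. Because no animal was named, each group was 1 sample. No p-value was possible, no difference has a replicate check, and every range or SD describes these cells alone.

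Translation begins when eIF2 brings the initiator tRNA to the small ribosomal subunit, eIF3 and the eIF4 cap complex load that subunit onto the mRNA, and eIF1 and eIF1A guide the search for the start codon. In elongation eEF1A delivers aminoacyl-tRNAs, eEF1B recharges eEF1A with GTP, eEF2 moves the ribosome along the mRNA, and eIF5A, which carries the modified amino acid hypusine, relieves stalled ribosomes. Erythroblasts are known for coupling translation to heme supply, since the kinase HRI (Eif2ak1) phosphorylates eIF2 when heme is short.

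Cells of the groups were not alike in detected genes or makeup. Detection meant an RPKM of 1 or more. Detected genes per cell had a median of 1069 in Flvcr-deleted (169 to 3452), 2422 in wild-type (1151 to 4047) and 1441 in EPO-treated cells (638 to 3982), and the translation factors detected had medians of 15, 31 and 19 of 60. Of the 18 Flvcr-deleted class A cells, 9 carried a suffix d in their label, which no cell of another group had. Those 9 cells had 169 to 864 genes detected. Values of the EPO-treated columns had at most 2 decimals in 100% of cases, against 0.00247% and 0.00274% in the Flvcr-deleted and wild-type columns, so they may have been made apart. The targeted gene could not check the labels, since Mfsd7b, the older symbol of Flvcr1, was detected in 0 Flvcr-deleted, 1 wild-type and 0 cells after EPO. Erythroid markers were plentiful in classes B to D, with medians of 9 to 11 of 12 detected in each class of each group. In class A they were fewer, with a median of 5 in Flvcr-deleted cells, 3.5 in wild-type cells and 3 after EPO, and Alas2 and the anion exchanger Slc4a1 were at 0 in all 6 wild-type class A cells, so their markers go against the erythroblast label. There the granulocyte and monocyte markers had medians of 1, 3.5 and 2 of 14, and their summed level ranged over 0 to 700 RPKM, 1.72 to 3809 RPKM and 2.61 to 11605 RPKM. The marker lists of B cells, T and NK cells, megakaryocytes, macrophages and progenitors had a median of at most 1 detected marker in every class. In class B 4 Flvcr-deleted cells (cells 7, 13, 16 and 40) stood apart, with 0.320% to 2.71% of their summed RPKM in globin genes and Alas2, the erythroid heme synthesis enzyme, at 0. A level of 0 says only that a gene is listed at 0 in that cell, since Eef1a1, which every cell needs, was listed at 0 in 5 Flvcr-deleted cells and 1 EPO-treated cell.

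A pyrimidine-rich start is the known mark of mRNAs whose translation follows mTOR activity, a class that includes many ribosomal protein and elongation factor genes, so the annotated starts of the translation factors were searched for it. The motif was a C followed by at least 4 of C or T, on the gene's strand, within 10 bases either side of the start. RefSeq promoter entries (build GRCm38.p6) were matched for 46 of the 60 genes, and 13 of those 46 held the motif (28.3%), against 28.8% of the 27025 genes of that table, 32.1% of 1956 genes past the expression filter and 55.7% of 61 ribosomal protein genes. Among the elongation factors with an entry (Eef1a1, Eef1a2, Eef1b2, Eef1e1 and Eef2), 1 of 5 held it, and among eIF3 subunits 3 of 10. Eef1d and Eef1g had no entry. In Eef2 a run that fits the motif (ctctt) lies past the 10 bases searched, so it was not counted. The window of Eef1a1 is shown because Eef1a1 had the highest mean level of all members, that of Eif3f because its match is long, and those of Eif2s3x and Eif2s3y because this X and Y gene pair is compared below. The first match within the bases searched is in capitals and is cut where those bases end. In Eif3f, Eif2s3x and Eif2s3y the pyrimidine run therefore goes on in small letters. Each window runs from 40 bases before the annotated start to 20 bases from it, at chr9:78481705-78481764 (minus strand), chr7:108934375-108934434 (plus strand), chrX:94212632-94212691 (minus strand) and chrY:1010555-1010614 (plus strand).
Eef1a1: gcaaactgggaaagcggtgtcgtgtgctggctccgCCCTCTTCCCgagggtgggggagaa
Eif3f: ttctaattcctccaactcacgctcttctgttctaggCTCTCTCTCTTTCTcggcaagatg
Eif2s3x: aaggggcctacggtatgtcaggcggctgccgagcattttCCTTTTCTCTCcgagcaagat
Eif2s3y: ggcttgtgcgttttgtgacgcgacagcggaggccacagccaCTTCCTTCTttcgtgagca
A match describes these letters only and is not a measured start site.

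**Figure D1:**
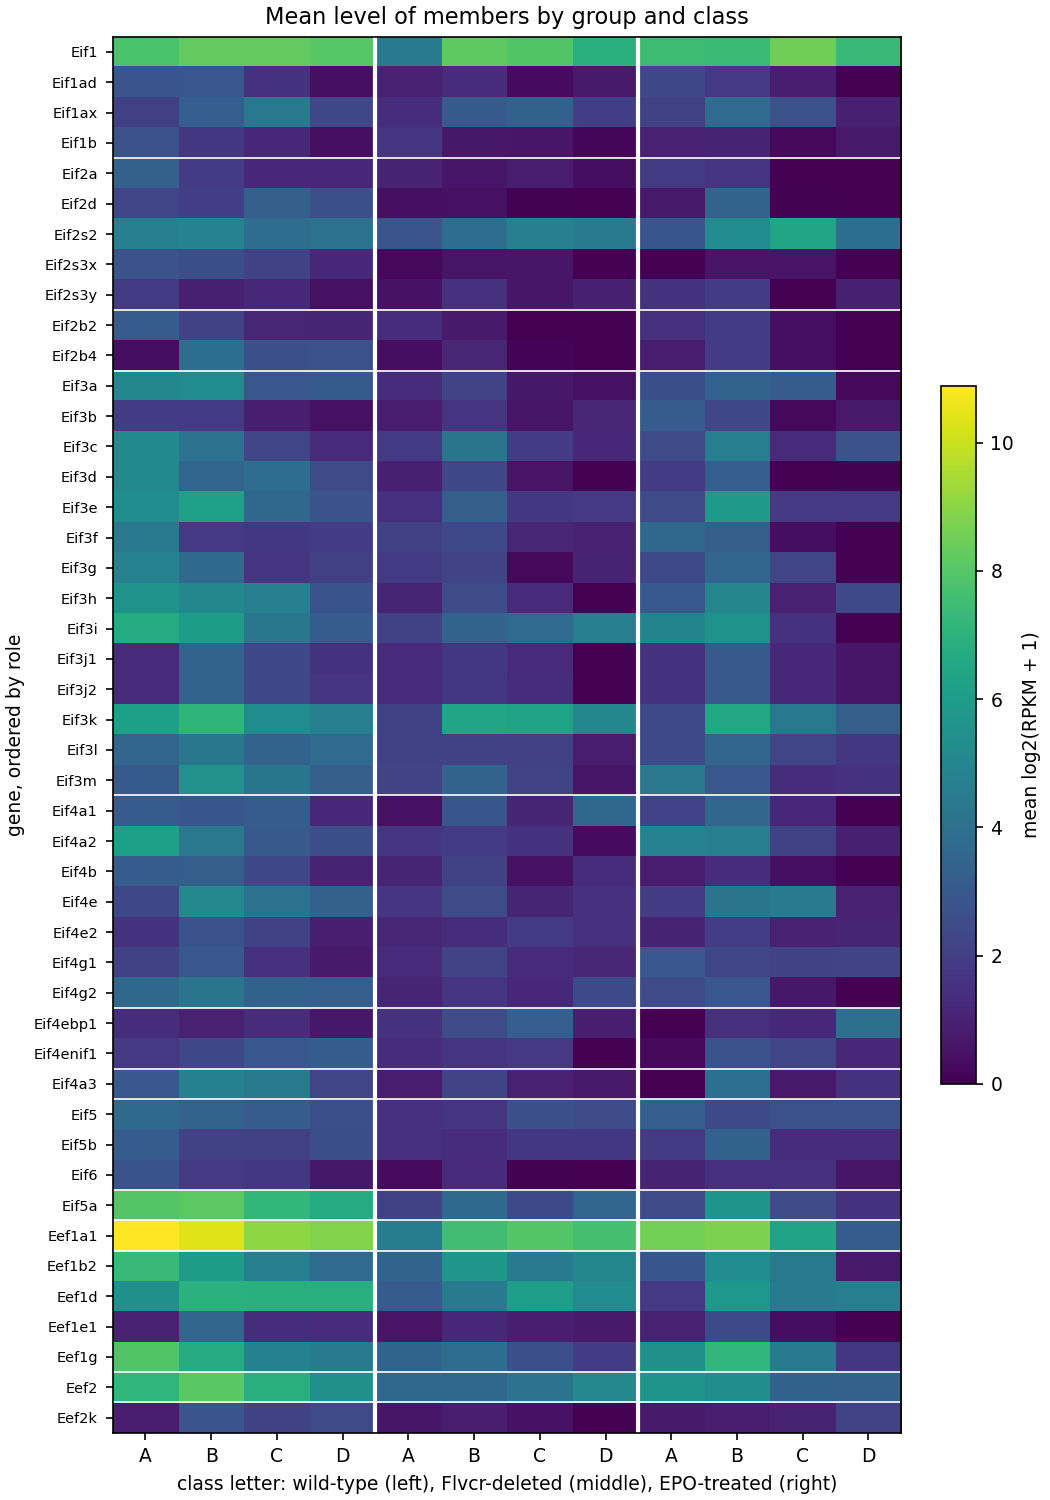
Mean log2(RPKM + 1) of the 46 translation factor genes past the filter (rows, ordered by role) in each class letter of wild-type, Flvcr-deleted and EPO-treated cells (columns). Eif1 and Eef1a1 are the brightest rows, and the Eif5a row is bright in all 4 wild-type classes and darker in the other groups.

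Translation factor genes were mostly lower in Flvcr-deleted than in wild-type cells, but so were most genes. Differences were taken within each class letter on mean log2(RPKM + 1) and averaged over the 4 letters. A gene was counted as lower or higher if this average reached 1 in size and every letter shared its sign. By this rule 25 of the 46 genes were lower (54.3%) and 0 were higher, where 44.6% of all 2540 genes were lower and 0.669% higher. The median difference was -1.34 over the 46 genes and -1.21 over all genes, so the translation factors lay close to the rest of the table. Without class A the counts were 25 lower and 1 higher, against 48.3% and 3.74% of all genes. Without the 9 class A cells of suffix d, 41.3% of the 46 genes were lower and 2.17% higher, against 37% and 3.5% of all genes. The medians were then -1.06 and -1.03.

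Fewer genes were lower, and more were higher, among cells with like numbers of detected genes. In the cells of letters B, C and D that had 1000 to 2000 genes detected (12 Flvcr-deleted, of which 4 in class B, and 18 wild-type, of which only 2 in class B), 4 translation factor genes were lower and 8 higher, against 19.1% and 16% of all genes. Their median difference there was 0.14, and that of all genes -0.09. This range takes wild-type cells from the low side of their group and Flvcr-deleted cells from the middle and high side of theirs. Globin genes held 76.8% to 92.2% of the summed RPKM in the 18 wild-type and 63.9% to 96.1% in the 12 Flvcr-deleted cells. In class B they held 87.8% and 88.8% in the 2 wild-type and 63.9% to 94.6% in the 4 Flvcr-deleted cells. The part of globin share in the differences was not tested. Below, "at like detection" refers to cells in this range. The 4 lower genes were Eif5a, Eef1d, Eif4g2 and Eif2b4, and the 8 higher were Eef1b2, Eif4ebp1, Eif3k, Eif3e, Eif4a1, Eif4b, Eif3c and Eif4e2.

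**Figure D2:**
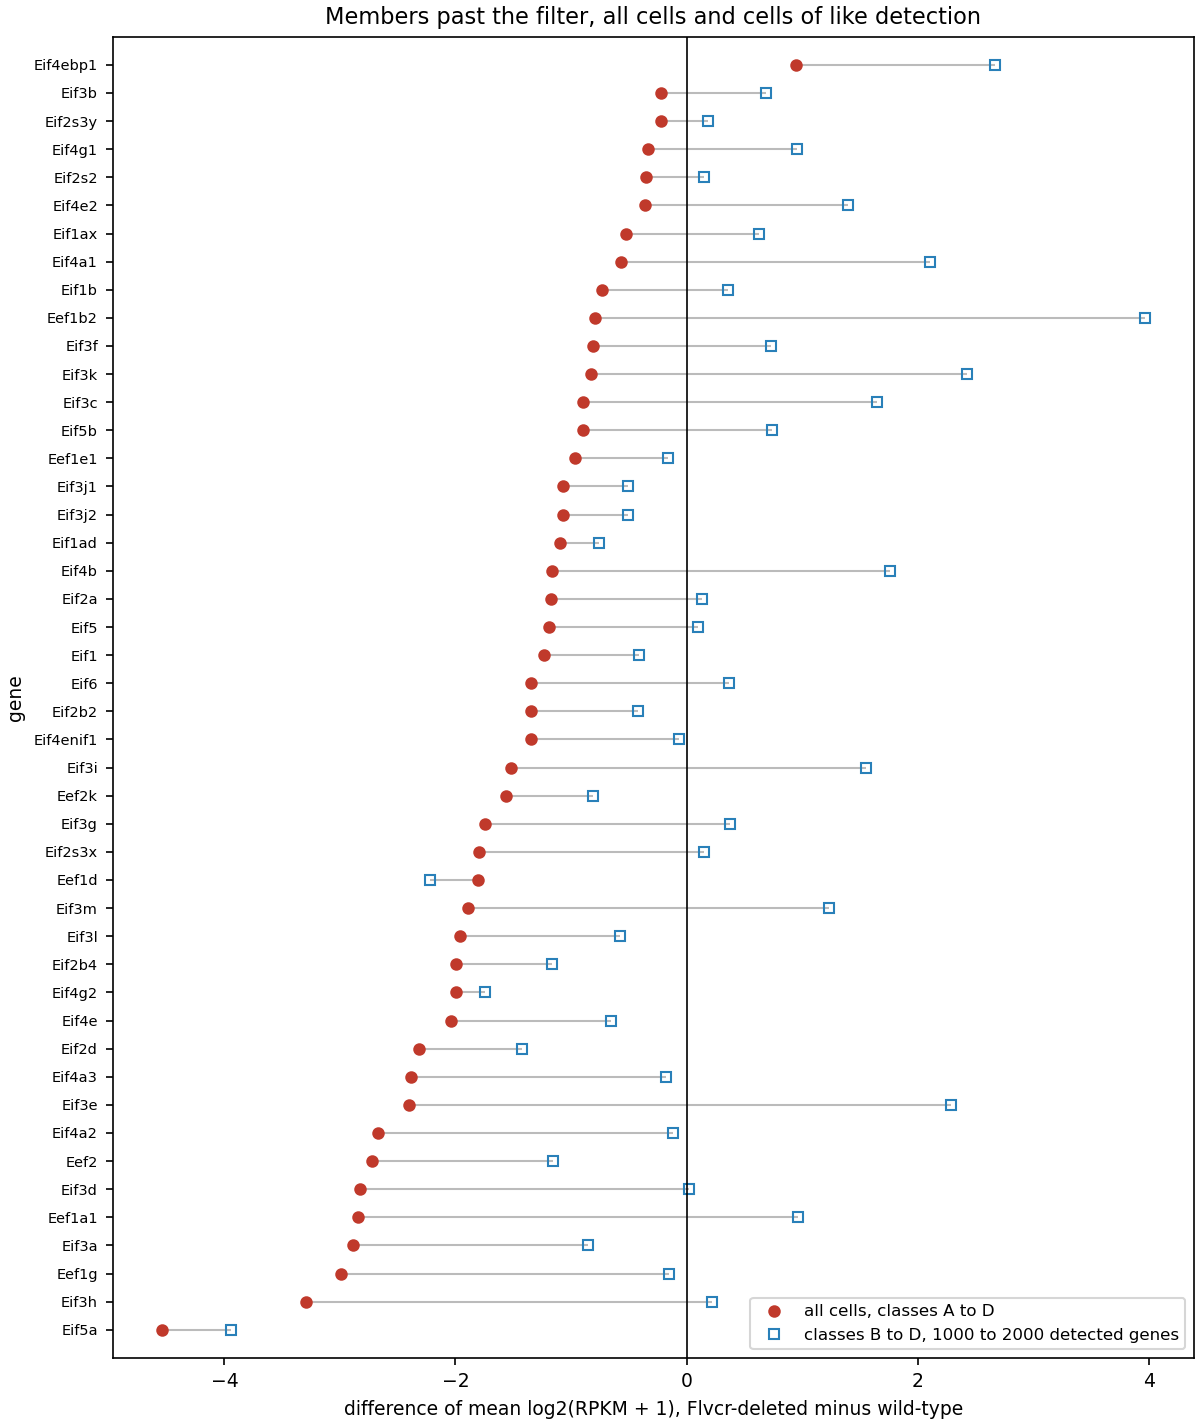
Difference of mean log2(RPKM + 1), Flvcr-deleted minus wild-type, for each translation factor gene past the filter, over all cells (filled circles) and over the cells of like detection (open squares). Of the 46 circles 45 lie below 0, whereas 20 of the squares do, and Eif5a is lowest in both.

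Eif5a (NM_001166595), the hypusine-carrying factor, had the lowest difference of all translation factors from wild-type in both other groups. In wild-type cells its log2 level ran from 3.01 to 10.39 with a median of 7.51, and it was detected in 48 of 48 cells (exact 95% interval 92.6% to 100%, counting error only). In Flvcr-deleted cells it ran from 0 to 8.72 with a median of 0.12, and 23 of 48 cells had it (47.9%, 33.3% to 62.8%). In EPO-treated cells it ran from 0 to 10.08 with a median of 2.17, and 16 of 31 had it (51.6%, 33.1% to 69.8%). No wild-type cell was at 0, while the other groups held both cells at 0 and cells at wild-type levels.

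By class, the mean log2 level of Eif5a in wild-type cells was 7.96 ± 1.74 (SD over 6 cells) in A, 8.16 ± 0.95 (10 cells) in B, 7.21 ± 1.68 (19 cells) in C and 6.71 ± 1.32 (13 cells) in D. In the Flvcr-deleted group the means were 2.12 ± 3.20 (18 cells), 3.74 ± 3.94 (16 cells), 2.45 ± 2.68 (9 cells) and 3.56 ± 2.78 (5 cells), and in the EPO-treated group 2.47 ± 4.17 (7 cells), 5.63 ± 3.85 (11 cells), 2.51 ± 3.19 (9 cells) and 1.55 ± 1.95 (4 cells). The 5 Flvcr-deleted class D cells had levels of 0, 1.82, 4.00, 4.74 and 7.24, and the 4 EPO-treated class D cells had 0, 0, 2.17 and 4.04. Both other groups had means below wild-type in every class, although single cells overlapped in each. The averaged difference was -4.54 for Flvcr-deleted and -4.47 for EPO-treated cells, with -0.07 between those groups.

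The Eif5a difference was smaller but of the same sign at like detection. There the 18 wild-type cells ran from 3.01 to 9.01 with a median of 6.81, the 12 Flvcr-deleted cells from 0 to 7.24 with a median of 0.91, and the 12 EPO-treated cells (only 2 of class D) from 0 to 10.08 with a median of 3.85, which gave differences of -3.94 and -2.64. The low-globin Flvcr-deleted class B cells had Eif5a at 7.90, 8.34, 8.71 and 8.72, within the wild-type class B range of 6.52 to 9.61. The other 12 Flvcr-deleted class B cells had a median of 0 and a highest level of 7.50. The table held 9 transcript rows of Eif5a, whose differences ran from -4.54 to -4.42 for Flvcr-deleted and from -4.47 to -4.33 for EPO-treated cells.

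Its paralog Eif5a2, under the expression filter, was detected in 2 Flvcr-deleted, 10 wild-type and 2 cells after EPO. Of the genes that make hypusine and polyamines, from which hypusine is built, 4 of 10 in the table passed the filter. Of those, 3 were lower in Flvcr-deleted and 3 in EPO-treated cells, where 44.6% and 35.2% of all genes were lower. Azin1, an activator of polyamine synthesis, had differences of -3.14 and -2.97 (at like detection -3.61 and -2.59). Amd1, which supplies the aminopropyl donor, had -2.57 and -2.19 (-1.87 and -1.41). Oaz1, which restrains polyamine synthesis, had -1.89 and -2.29 (-0.90 and -2.10), and Odc1, which makes the polyamine precursor putrescine, had 0.05 and -0.49 (-0.50 and -1.84). The hypusine enzymes Dhps and Dohh were too low for the filter.

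**Figure D3:**
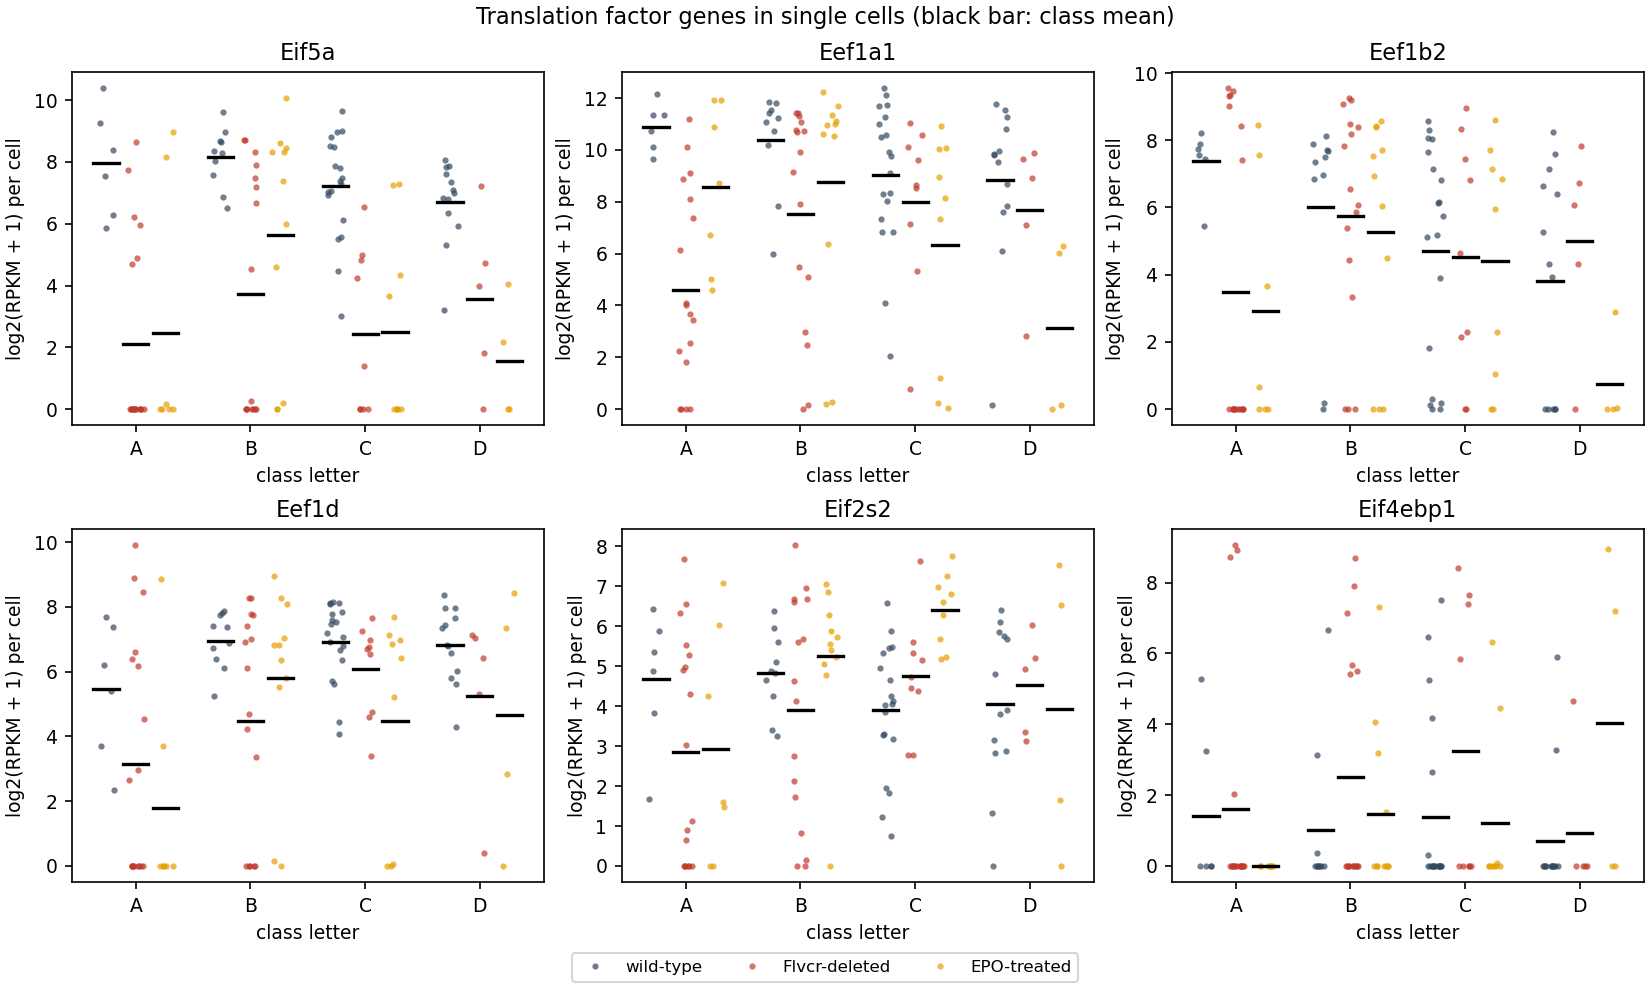
Log2(RPKM + 1) of 6 translation factor genes in each cell, by class letter and group, with black bars for class means. Eif5a and Eef1d are above 0 in every wild-type cell and at 0 in some Flvcr-deleted and EPO-treated cells, whereas the Eif2s2 points of the groups overlap in every class.

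Eef1a1 (NM_010106), which delivers aminoacyl-tRNAs, had a mean log2 level of 7.83 over all 127 cells, the highest of the 60 genes on this length-scaled unit. In wild-type cells it ran from 0.16 to 12.38 with a median of 10.14, in Flvcr-deleted cells from 0 to 11.44 with a median of 7.65 and in EPO-treated cells from 0 to 12.23 with a median of 8.73. The ranges overlapped almost fully, and the groups differed in how many cells lay low. The averaged difference was -2.84 for Flvcr-deleted cells, made up of -6.29 in class A, -2.83 in B, -1.06 in C and -1.17 in D, and -3.10 for EPO-treated cells, with -5.73 in class D. At like detection the sign turned, with 0.97 and 0.21. Over all cells of Flvcr-deleted class A, the 9 cells with suffix d had Eef1a1 at 0 to 4.00 and the others at 3.67 to 11.19.

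The eEF1B subunits, which recharge eEF1A, differed among themselves. Eef1b2 (NM_018796) ran from 0 to 9.55 in Flvcr-deleted cells (median 5.63, detected in 31 of 48), from 0 to 8.57 in wild-type cells (median 6.52, 36 of 48) and from 0 to 8.60 in EPO-treated cells (median 3.66, 19 of 31). Its difference of -0.80 for Flvcr-deleted cells was negative in A (-3.91), B and C and positive in D (1.18). At like detection the medians were 6.41 and 6.40 in Flvcr-deleted and EPO-treated cells against 0.15 in wild-type cells, with detection in 10 of 12, 8 of 12 and 8 of 18. The differences were 3.96, which met the rule for higher, and 2.37, which did not, as the classes differed in sign.

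Eef1d (NM_001285431) was lower in Flvcr-deleted cells over all cells and at like detection. All 48 wild-type cells had it (2.34 to 8.38, median 6.99), as did 33 of 48 from Flvcr-deleted marrow (0 to 9.91, median 5.04) and 20 of 31 after EPO (0 to 8.94, median 5.82), and its differences were -1.80 and -2.36. At like detection they were -2.22 and -0.47, with the 18 wild-type cells at 4.07 to 8.38 and 9 of 12 Flvcr-deleted cells with the gene. Eef1g (NM_026007), the structural subunit, had differences of -2.99 and -1.28, and -0.16 and 1.25 at like detection. Eef1e1, which is better known as a member of the multi-synthetase complex, had -0.97 and -0.88.

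Eef2 (NM_007907), the translocase, ran from 0.95 to 9.62 in wild-type cells (median 7.73), from 0 to 8.76 in Flvcr-deleted cells (median 4.32) and from 0 to 8.79 in EPO-treated cells (median 4.53). Its differences were -2.73 and -2.47, and -1.15 and -1.91 at like detection. In class D the Flvcr-deleted cells, at 4.2, 4.33, 5.38, 5.43 and 6.28, all lay inside the wild-type range of 0.95 to 8.89, and the difference there was -0.33. Eef2k, the kinase that restrains eEF2, had differences of -1.56 and -0.82 and was detected in 7 Flvcr-deleted, 25 wild-type and 10 cells after EPO. Of the remaining elongation genes, Eefsec, the selenocysteine factor, was detected in 11 cells and Eef2kmt in 4.

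The 14 eIF3 subunit genes, whose product is the scaffold for the small subunit, had differences for Flvcr-deleted cells from -3.30 (Eif3h) to -0.22 (Eif3b), with a median of -1.63, and 7 of the 14 met the rule for lower, a share close to the 44.6% of all genes. Eif3h (NM_080635) was seen in 37 of 48 wild-type cells (0 to 8.79, median 4.72) and 13 of 48 Flvcr-deleted cells (0 to 7.17, median 0), and none of the 5 Flvcr-deleted class D cells had it. Eif3a, the largest subunit, had -2.89, with detection in 32 wild-type and 14 Flvcr-deleted cells. Eif3d, which can bind the cap, had -2.82 and detection in 27 and 11 cells, and -2.48 for EPO-treated cells. Eif3j1 and Eif3j2, a near-identical pair, differed by at most 1.16 RPKM in any cell. All counts and medians hold both, although they may be 1 signal: with the pair taken once, 7 of 13 eIF3 genes and 25 of 45 translation factor genes were lower.

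At like detection no eIF3 gene met the rule for lower and 3 met that for higher, against 19.1% and 16% of all genes, and the eIF3 median was 0.53. The differences of Eif3h, Eif3d and Eif3a were then 0.22, 0.02 and -0.85. Eif3e had 2.29, seen in 4 of 12 Flvcr-deleted but 1 of 18 wild-type cells, and Eif3k had 2.43, with medians of 6.73 and 3.56. For EPO-treated cells 6 of the 14 were lower over all cells, against 35.2% of all genes, with a median of -1.36 against -1.02.

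Among cap complex genes, 3 of 7 past the filter were lower in Flvcr-deleted cells, a share close to the 44.6% of all genes. Eif4a2 (NM_001123037), an RNA helicase, had a difference of -2.67 and was detected in 17 of 48 Flvcr-deleted cells (0 to 8.47, median 0), 35 of 48 wild-type cells (0 to 7.80, median 3.96) and 22 of 31 EPO-treated cells (0 to 9.13, median 4.04). For EPO-treated cells it had -0.89, and at like detection -0.12 and 1.43, neither of which met the rule. Its paralog Eif4a1 had differences of -0.57 and -0.85, and in Flvcr-deleted cells these ran from -2.66 in class A to 2.43 in class D. At like detection Eif4a1 had 2.11, which met the rule for higher, and 1.40, which did not. Eif4e, which binds the cap, had -2.04 and -0.82, and at like detection -0.66 and 1.75.

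Eif4g2 (NM_001040131), an eIF4G relative that lacks the eIF4E binding site, was lower in both groups over all cells and at like detection. It ran from 0 to 6.69 in wild-type cells (median 4.16, detected in 39 of 48), from 0 to 6.83 in Flvcr-deleted cells (median 0.21, 20 of 48) and from 0 to 6.89 in EPO-treated cells (median 0.06, 10 of 31). Its differences were -1.99 and -2.08, and -1.74 and -2.21 at like detection. Eif4g1, the main scaffold, had -0.34 and 0.56. Eif4a3, a helicase of the exon junction complex and not of the cap complex, had -2.38 and -2.03, and -0.18 and 0.21 at like detection.

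Eif4ebp1 (NM_007918), the inhibitor that holds eIF4E when mTOR is inactive, had the highest difference of the 46 genes for Flvcr-deleted cells, 0.94, under the size of 1 needed for a call. Most cells were at 0, with detection in 15 of 48 Flvcr-deleted (31.3%, 18.7% to 46.3%), 11 of 48 wild-type (22.9%, 12.0% to 37.3%) and 8 of 31 EPO-treated cells (25.8%, 11.9% to 44.6%). These intervals hold counting error only and do not compare the groups. The detecting cells reached log2 levels of 9.06, 7.50 and 8.94. At like detection it was seen in 5 of 12, 1 of 18 and 4 of 12 cells, with differences of 2.67 and 3.07. Only 2 of those EPO-treated cells were in class D, at 7.19 and 8.94. In the low-globin class B cells it was at 5.52, 5.41, 7.90 and 0. Eif4ebp2 and Eif4ebp3 were detected in 4 and 15 cells.

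Eif1 (NM_011508), which guards start codon choice, had a narrow wild-type range of 7.08 to 9.13 with a median of 8.17, and levels of 0 to 10.21 (median 7.84) in Flvcr-deleted and 2.95 to 10.21 (median 8.04) in EPO-treated cells. The 7 Flvcr-deleted cells at 0 were all in class A. Its differences were -1.23, made up of -3.33 in A and -0.11 in B, -0.35 in C and -1.14 in D, and -0.41. Eif2s2 (NM_026030), the eIF2 beta subunit, had medians of 4.42, 4.45 and 5.69 in Flvcr-deleted, wild-type and then EPO-treated cells, and differences of -0.35 and 0.27. In class C the 9 EPO-treated cells, at 5.18 to 7.75, lay mostly above the 19 wild-type cells, at 0.74 to 6.58, a difference of 2.52.

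Eif2s3x, the X-linked eIF2 gamma gene, was found in 6 Flvcr-deleted, 20 wild-type and 3 cells after EPO, with differences of -1.80 and -1.88, and 0.15 and -0.35 at like detection. Its Y-linked copy Eif2s3y was detected in 8, 10 and 7 cells, with differences of -0.22 and -0.01. Cells with any of 4 Y-linked genes, Eif2s3y among them, numbered 15, 15 and 9, cells with Xist, the transcript of the inactive X, numbered 15, 23 and 12, and 0 of 127 cells had both. Each group therefore held cells of both kinds. Among cells with Xist (15 Flvcr-deleted and 23 wild-type, with 1 Flvcr-deleted cell in class D) 7 of the 46 genes were lower and 3 higher, against 15.7% and 2.95% of all genes, and Eif5a, at -2.56, no longer met the rule. Among cells with a Y-linked transcript (15 and 15) 58.7% of the 46 genes were lower, against 39.9% of all genes, and Eif5a had -5.02. These splits were chosen after seeing the data, and the difference between them was not tested. For Eif2s1 and Eif2ak1, which the member rule left out, the differences were -1.51 and -1.21 in Flvcr-deleted and -0.86 and -0.73 in EPO-treated cells. At like detection Eif2s1 turned to 1.89 and 2.28, and Eif2ak1 had -3.33 and -3.94. Eif6, which keeps the ribosomal subunits apart, had -1.34 and -0.60, and 0.37 and 0.89 at like detection, with detection in 6, 17 and 7 cells. Of the genes under the filter that were detected in at least 10 cells, Eif2b1 was found in 23, Eif2b3 and Eif4g3 in 24 each, Eif4h in 21, Eif1a in 15 and Eif2b5 in 14. For Eif4h these were 1 Flvcr-deleted, 19 wild-type and 1 EPO-treated cell. Its differences were -1.46 and -1.45, and -0.20 and -0.17 at like detection.

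**Figure D4:**
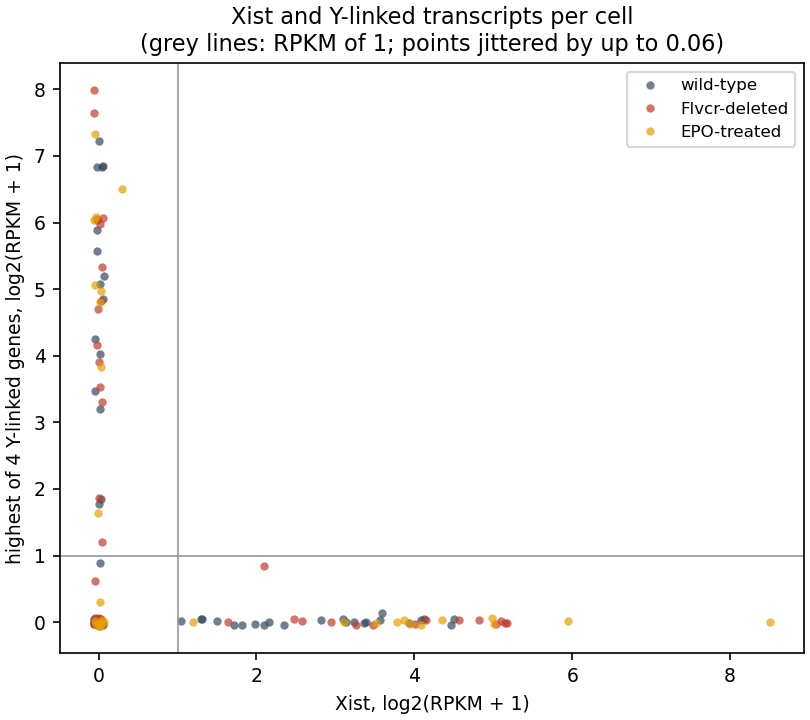
Xist level (horizontal axis) against the highest level of 4 Y-linked genes, Eif2s3y included (vertical axis), per cell as log2(RPKM + 1), jittered, with grey lines at an RPKM of 1. No cell lies beyond both lines, and cells of all 3 groups lie along each axis.

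EPO-treated cells were compared with the same wild-type cells, so this comparison is not independent of the one above. Of the 46 genes 16 were lower and 0 higher, against 35.2% and 0.236% of all genes, and the median was -0.93 against -1.02. Without class A 18 were lower and 0 higher, against 42% and 0.512%. At like detection, with 12 EPO-treated cells (only 2 of class D), 3 were lower (Eif5a, Eef2 and Eif4g2) and 8 higher, against 14% and 7.99%, with medians of 0.53 and -0.06. Between the Flvcr-deleted and EPO-treated cells 1 gene was lower, Eif4a2 with -1.78, and 1 higher, Eef1b2 with 1.35, against 6.26% and 2.44% of all genes. Without class A the counts were again 1 and 1, of the same genes, against 8.86% and 7.76%, and at like detection 5 were lower and 1 higher, against 7.64% and 9.92%. Neither Eif4a2 (-1.55) nor Eef1b2 (1.59) met the rule there, and the called genes were Eef1g, Eif2s2, Eif3l, Eif4e and Eif4enif1 (lower) and Eif4b (higher). Other differences over all cells that did not meet the rule were -1.71 for Eef1g, -1.60 for Eif3h, -1.21 for Eif4e, -1.13 for Eif3a, -0.91 for Eif3e and -0.89 for Eif4g1. Eef1b2 rests there on class D, where its difference was 4.26 and the 4 EPO-treated cells had 0, 0, 0.04 and 2.90 against 0, 4.31, 6.08, 6.74 and 7.83 in the 5 Flvcr-deleted cells, and without the 4 low-globin cells it had 1.12 and no longer met the rule.

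The balance of elongation to initiation was taken within each cell. It was the log2 of the summed RPKM of 5 elongation genes over that of 33 initiation genes, with 1 added to each sum. This measure nearly cancels a cell's scaling, unless a sum is near 0. In wild-type cells it ran from -2.24 to 1.72 with a median of 0.35, in Flvcr-deleted cells from -7.47 to 3.31 with a median of -0.86, and in EPO-treated cells from -7.52 to 2.22 with a median of -0.49. The groups overlapped, and the low tail was found in the Flvcr-deleted and EPO-treated cells. The averaged difference was -1.21 for Flvcr-deleted cells (-2.42 in A, -1.70 in B, -0.20 in C and -0.51 in D), -1.35 for EPO-treated cells and 0.15 between them. At like detection it was -0.19 and -0.72. The difference of the elongation sum was larger than that of the initiation sum, -2.24 against -1.04 in Flvcr-deleted and -1.73 against -0.38 in EPO-treated cells. At like detection both signs turned, with elongation at 0.44 against 0.63 for initiation in Flvcr-deleted and 0.34 against 1.06 in EPO-treated cells.

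**Figure D5:**
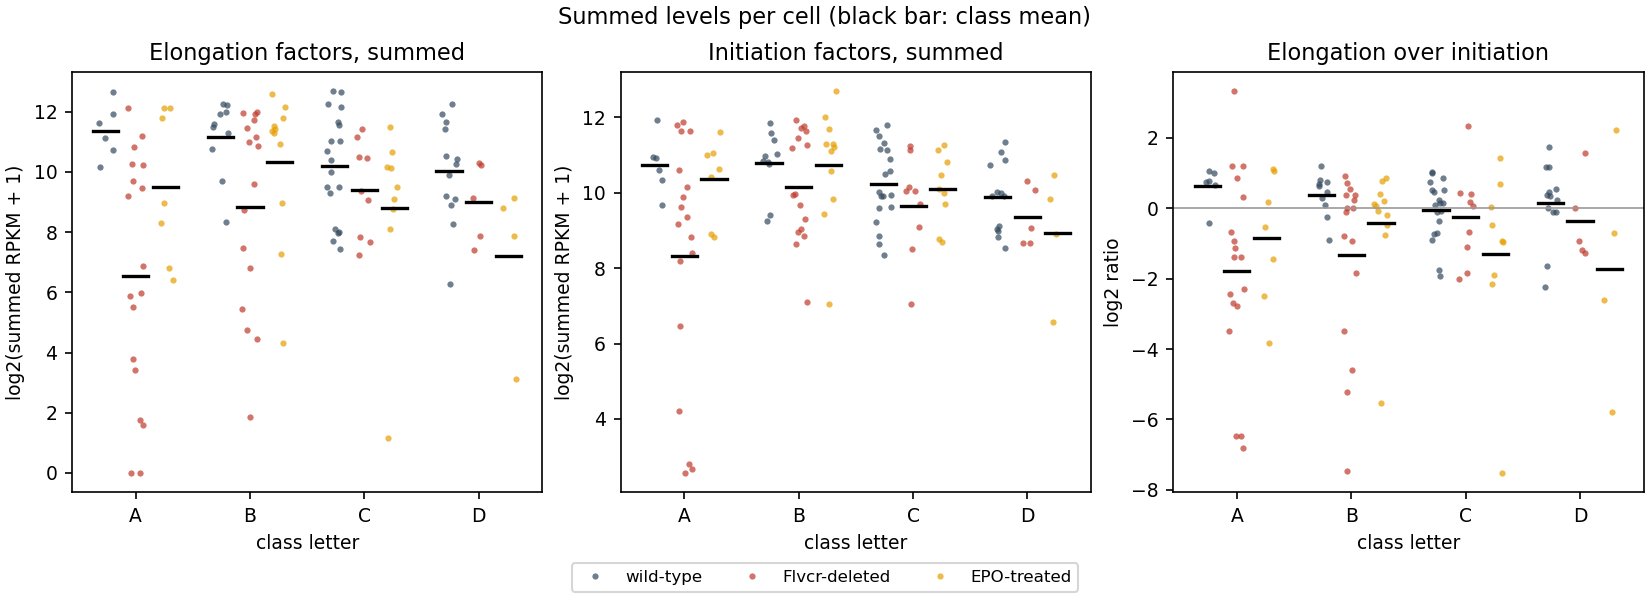
Summed level of 5 elongation genes, of 33 initiation genes, each as log2(summed RPKM + 1), and their log2 ratio per cell, by class letter and group, with black bars for class means. The wild-type ratio stays between -2.24 and 1.72, and cells below -3 occur in the other groups.

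Between classes B and D, translation factors were mostly lower in D within every group, although in Flvcr-deleted cells this rests on 4 class B cells. In wild-type cells 31 of 46 were lower and 0 higher by a size of at least 1, against 46.1% and 5.39% of all genes, with a median of -1.49 against -0.90. The largest were Eif3e at -3.45 (means 6.23 and 2.78), Eif3i at -2.82 and Eif3c at -2.79, while Eif1 and Eef1d had -0.23 and -0.14. In Flvcr-deleted cells 23 were lower and 2 higher, against 30.6% and 13.5%, with Eif3c at -2.94, Eif3m at -2.82 and Eif3h at -2.49 lowest, and Eef2 (1.45) and Eif3i (1.19) higher. Without the 4 low-globin class B cells 7 were lower and 9 higher, against 13.5% and 20% of all genes, and the values were -2.07 for Eif3c, -1.97 for Eif3m, -1.37 for Eif3h, 2.36 for Eef2 and 2.67 for Eif3i. In EPO-treated cells, with 4 in class D, 36 were lower and 2 higher, against 58.3% and 10.9%, led by Eef1a1 at -5.64, Eif3i at -5.56 and Eef1g at -5.38. Detected genes were also fewer in D than in B, with medians of 1891 against 3033.5 in wild-type, 1214 against 1235 in Flvcr-deleted and 1087.5 against 1771 in EPO-treated cells. The median globin share was higher in D, at 84.5% against 45.8% in wild-type, 90.7% against 79.8% in Flvcr-deleted and 92.4% against 45.8% in EPO-treated cells. The part of detected genes and globin share in these differences was not tested.

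Other genes of the translation pathway gave counts on either side of the background for Flvcr-deleted cells, where 44.6% of all genes were lower. The lists are small, and shares near 44.6% do not set a list apart. Lower by the same rule were 8 of 15 cytosolic aminoacyl-tRNA synthetases, with Hars at -3.32 and Aars at -2.51, and 2 of 4 poly(A) binding genes, with Paip2, an inhibitor of poly(A) binding protein, at -2.06 and Paip1 at -1.38. So were both mTOR pathway genes past the filter, Pdcd4, an inhibitor of eIF4A, at -1.60 and Rheb, the activator of mTOR, at -1.56, and 1 of 2 termination genes, the recycling factor Abce1, at -1.30 beside Mcts1 at -0.49. None of the nascent chain factors Btf3 and Naca, or of Tpt1 and Gnb2l1 listed with them, was lower, and Btf3 and Naca had -1.03 and -0.91. Mtif2, the single mitochondrial factor past the filter, had -0.74. At like detection 2 of the 15 synthetases were lower and 1 higher, against 19.1% and 16% of all genes, with Hars at -3.80 and Aars at -2.53. Paip2 had -1.62, Pdcd4 -2.24 and Rheb -1.12 there, and Paip1 and Abce1 turned to 0.74 and 0.53. Btf3, Naca, Tpt1 and Gnb2l1 all lay above 0 there, with Naca at 4.01 and Gnb2l1, which is not a nascent chain factor, at 5.69. In EPO-treated cells, where 35.2% of all genes were lower, 5 of the 15 synthetases (Hars -2.94, Kars -2.76) and 1 of the 4 poly(A) binding genes were lower. None of Btf3, Naca, Tpt1, Gnb2l1 and the mTOR, termination and mitochondrial genes past the filter was lower.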

How the data were processed

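The authors deposited a single table of RPKM values, with RefSeq transcripts in rows and cells in columns. The submitters' processing notes name TopHat2 2.0.9 and mm9, and the counting tool is not given in the sources used here. Depth in reads is therefore unknown. A further 4 columns matched none of the samples and were left out. Values were taken as log2(RPKM + 1), a scale that understates changes of low genes. Cells were grouped by genotype or treatment and by class letter in the labels. Intervals (95%) on shares of cells are exact, by Clopper and Pearson.

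The members, gene lists and alternatives were chosen with earlier results of these data known. Named genes were the 8 members with the largest difference in each contrast, the 3 largest between classes B and D in each group, a fixed set of factors, and 2 genes of each other list. Genes named at like detection were chosen after their values were seen. The calculations (Python 3.11.15, pandas 2.3.3, scipy 1.17.1) were tested on simulated data. Alternatives changed the pseudocount, filter, scaling, weighting, rows and cells. Protein sequences were not used here.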

Additional observations from a re-analysis of the deposited data

Results flagged for a closer look

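Single cells far from the rest of their class were looked for with Dixon's criterion in 63 sets of 4 to 10 cells (8 genes and the ratio of elongation to initiation), of which 9 stood out. Chance flags about 1 in 20 such sets if values are normally distributed. That rate does not hold for levels with many zeros, so the 9 cannot be read as an excess. Eef1b2 was lowest at 5.45 in 1 of 6 wild-type class A cells and highest at 2.90 in 1 of 4 EPO-treated class D cells. Eef1d was lowest at 0.40 in 1 of 5 Flvcr-deleted class D cells and highest at 8.85 in 1 of 7 EPO-treated class A cells. Eef1g was lowest at 0.30 in 1 of 10 wild-type class B cells and highest at 7.00 in 1 of 4 EPO-treated class D cells. Eef2 was lowest at 2.09 in 1 of 7 EPO-treated class A cells. The log2 ratio of elongation to initiation genes was lowest at -0.42 in 1 of 6 wild-type class A cells and at -7.52 in 1 of 9 EPO-treated class C cells.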

How the results depend on the processing

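No paired analysis was possible because replicate numbers only name cells. With 1 sample a group, no replicate could be left out. In the cells of like detection (1000 to 2000 genes detected), the members lower and higher were 4 and 8 for Flvcr-deleted and 3 and 8 for EPO-treated against wild-type cells, 5 members were lower between Flvcr-deleted and EPO-treated cells, and the ratio of elongation to initiation was -0.19 and -0.72. In the same cells the sign turned for 25 of 46 members in Flvcr-deleted and 28 in EPO-treated cells, of which 10 and 10 had met the rule over all cells. Those named by rule among the latter were Eef1a1 (0.97 in Flvcr-deleted, 0.21 in EPO-treated), Eif3d (0.018 and 0.54), Eif2s3x (0.15), Eif3h (0.22) and Eif6 (0.37) in Flvcr-deleted, and Eef1b2 (2.37) and Eif4a3 (0.21) in EPO-treated cells. The cause was not tested.

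With 10 added to RPKM, the shares of all genes lower were 16.7% and 11.5% for Flvcr-deleted and EPO-treated against wild-type cells, and 19.1%, 10.2% and 32.3% for class D against B in wild-type, Flvcr-deleted and EPO-treated cells. Lower members were 14 for Flvcr-deleted and 5 for EPO-treated against wild-type cells, and for class D against B 16 in wild-type, 8 in Flvcr-deleted and 23 in EPO-treated cells. Higher were 0 for Flvcr-deleted against EPO-treated (1.22% of all genes), 0 for D against B in Flvcr-deleted (4.21%) and 1 in EPO-treated cells (5.94%). With 0.1 added, 7 were lower for Flvcr-deleted against EPO-treated (11.6% of all genes). For D against B 6 and 2 were higher in Flvcr-deleted and wild-type cells, against 20.5% and 7.13% of all genes. With every cell scaled to 1 sum, Flvcr-deleted against EPO-treated gave 4 lower (10.6% of all genes) and 0 higher (0.669%), and D against B gave 0 higher in Flvcr-deleted (7.24%) and 1 in EPO-treated cells (5.24%). This scaling moved the median of all genes from -1.21 to -1.55 for Flvcr-deleted cells, where 55.2% were then lower, and a sum without globins moved it to -1.01, with 37.5% lower. The latter gave 3 lower for Flvcr-deleted against EPO-treated (6.1% of all genes), and 7 and 1 higher for D against B in Flvcr-deleted and wild-type cells (19.2% and 6.93%).

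Weighting every cell alike gave 1 higher for Flvcr-deleted against wild-type (1.22% of all genes), and 9 lower (17.7%) and 0 higher (2.99%) for Flvcr-deleted against EPO-treated. Class medians gave 8 lower for EPO-treated against wild-type (16.7% of all genes) and 0 higher for Flvcr-deleted against EPO-treated (1.26%). Leaving out class A, or the 9 Flvcr-deleted cells with suffix d, gave 1 higher for Flvcr-deleted against wild-type (3.74% and 3.5% of all genes). Without the smaller EPO-treated chip (4 cells) 2 were higher for Flvcr-deleted against EPO-treated (4.06%).

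Chosen after seeing the data, leaving out the 4 low-globin cells gave 3 lower (7.83% of all genes) and 0 higher (1.89%) for Flvcr-deleted against EPO-treated. For D against B in Flvcr-deleted cells it gave 7 lower (13.5%) and 9 higher (20%). Cells with Xist, also chosen after seeing the data, gave 7 lower and 3 higher for Flvcr-deleted against wild-type, against 15.7% and 2.95% of all genes. Of the other counts and ratios, 110 moved by no more than 1.5 times.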
